A study of Homo sapiens with 9 samples.

Results

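Small nucleolar RNAs (snoRNAs) and small Cajal body RNAs (scaRNAs) were followed on 9 arrays of enriched LAN-1 cells, a human neuroblastoma cell line with MYCN amplification. The members were all probe sets whose only gene symbol in the platform annotation starts with SNORA, SNORD or SCARNA. This gave 64 of 44988 probe sets with 1 symbol, and 48 of 18132 genes after each gene was reduced to its most variable probe set. In every condition the cells had been mixed into tumor-free bone marrow, separated with the mononuclear cells on a density gradient and recovered with magnetic beads against GD2, a ganglioside on the neuroblastoma cell surface. Group 1 was processed fresh. Both other groups were frozen in DMSO as mononuclear cells, stored for a week and thawed before the bead step, without an additional gradient in group 2 and with an additional Lymphoprep gradient in group 3. Each condition had 3 biological replicates, and the line is a model of disseminated tumor cells, not patient material. Arrays are named by their deposited labels, and these alone say which thawed arrays had the additional gradient. The study's text gives the larger number of altered genes to the thawed condition that has the smaller number here, so the labels of the thawed conditions may have been exchanged at deposit, which could not be settled from the files. An exchange would swap "with gradient" and "without gradient" in every value below and leave the sizes as they are.

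Box C/D snoRNAs guide 2'-O-methylation and box H/ACA snoRNAs guide pseudouridylation, mostly of ribosomal RNA in the nucleolus. ScaRNAs guide the same modifications on spliceosomal RNAs in Cajal bodies. In human cells nearly all of them are cut out of introns of a host gene, after splicing, and are held stable by the proteins that bind them. These are fibrillarin with NOP56, NOP58 and SNU13 on box C/D RNAs and dyskerin with NOP10, NHP2 and GAR1 on box H/ACA RNAs. Host genes are often genes of ribosomal proteins, of translation factors or of long noncoding RNAs, and many of them start with a pyrimidine tract at the first transcribed base. Mature snoRNAs and scaRNAs carry no poly(A) tail, whereas the labelling for these arrays is a 3' method for expression arrays. The signal of a member probe set can therefore not be assigned to the mature RNA, a precursor or an unspliced host transcript.

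Of the 48 member genes, 37 were H/ACA RNAs, 7 were C/D RNAs and 4 were scaRNAs. Their RefSeq length was 103 to 348 bases, with a median of 135. All 48 lay within the span of another RefSeq gene, 43 hosts in all, of which 36 code for protein and 7 are long noncoding RNAs. SNHG17, a long noncoding RNA, held 3 members, and CHD8, a chromatin remodeler, CNOT1, the scaffold of the CCR4-NOT deadenylase, and KANSL2, a subunit of a histone acetyltransferase complex, held 2 each. A host probe set was measured for 44 members and 39 hosts. It was not measured here for USP32, DANCR, SNHG4 and RPS12, the hosts of SCARNA20, SNORA26, SNORA74A and SNORA33. A C followed by at least 4 further C or T, read on the gene's own strand from the first transcribed base, opened 10 of 44 host starts in the RefSeq promoter table (22.7%) and 1429 of all 35116 starts (4.07%). The starts of 4 hosts of members described here are printed below with 30 bases before and 20 bases from the start on, to show hosts with the tract, in capitals, and without it. They are NCAPD2 (chr12:6494072-6494121, plus strand) and SNX5 (chr20:17968775-17968824, minus strand), with the tract, and USP32 (chr17:60392114-60392163, minus strand) and DANCR (chr4:52712364-52712413, plus strand), without it, all in RefSeq build GRCh38.p14.
NCAPD2: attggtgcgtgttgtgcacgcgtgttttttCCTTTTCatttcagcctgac
SNX5: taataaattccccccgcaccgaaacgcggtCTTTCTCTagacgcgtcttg
USP32: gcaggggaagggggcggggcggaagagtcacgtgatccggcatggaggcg
DANCR: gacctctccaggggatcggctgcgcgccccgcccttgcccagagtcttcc

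The arrays differed in measures that touch every result below. The 3' minus 5' difference of the GAPDH control probe sets, a measure of how far the labelled RNA reached toward transcript starts, was 4.92, 3.56 and 1.56 on the fresh arrays, 1.09, 1.45 and 0.94 on the arrays without gradient, and 6.73, 2.90 and 2.07 on the arrays with gradient (log2, replicates 1 to 3). Some markers of marrow cells differed between the conditions. The summed signal of 3 of 6 listed erythroid markers (log2) was 10.84 to 12.74 on the fresh arrays, 7.14 to 9.51 without gradient and 9.62 to 10.24 with gradient, but this sum follows HBB, at -3.97 without gradient against fresh, where ALAS2 was at -0.02. That of all 7 granulocyte markers was 10.03 to 12.28, 7.52 to 9.18 and 8.53 to 10.58. The sum of 4 monocyte markers overlapped between all conditions (7.5 to 8.98, 6.98 to 9.48 and 8.18 to 10.99), and that of 4 of 5 lymphocyte markers was 5.67 to 6.24, 5.55 to 5.66 and 5.68 to 6.34. The sum of 7 of 8 neuroblastoma markers was 13.47 to 13.83, 13.97 to 14.27 and 13.10 to 13.73 in the same order. No marker was at 0 on this scale, and the part of these markers in the results was not tested.

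Member signals were low to moderate. The mean log2 signal over the 9 arrays was 3.03 to 8.34 over the 48 genes, with a median of 5.09, against 2.66 to 14.74 and a median of 5.57 over all genes. The array's background control probe sets averaged 4.23 to 4.35 on 8 arrays and 4.57 on replicate 1 with gradient. On all 9 arrays, 27 members were above this average and 8 were below it (SNORA16B, SNORA19, SNORA35, SNORA37, SNORA46, SNORA50A, SNORA70B and SNORD67), and 13 lay on both sides. The 23 background control probe sets themselves spread widely, and the highest of them, at 9.16 to 10.11, was above all 64 member probe sets on every array. Of the 64 probe sets, 20 are of a kind that the manufacturer marks (_x_) as able to bind other transcripts, so their values may share signal with other genes. Near-identical copies, such as SNORA71A, SNORA71C and SNORA71D, may share signal too, although the probe sets that stand for these genes do not carry the mark.

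The plot of all members by array gives the pattern. The median deviation of the 48 members from their own means was -0.23, -0.12 and -0.18 on the arrays without gradient, and 6, 12 and 15 members were above their own mean there. It was 0.16, 0.03 and -0.08 on the fresh arrays and 0.19, 0.16 and 0.00 on the arrays with gradient. Each of the 3 arrays thawed without gradient was under all 6 others. Within the fresh arrays and within those with gradient, replicate 3, with the lowest GAPDH difference, had the lowest median.

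**Figure D1:**
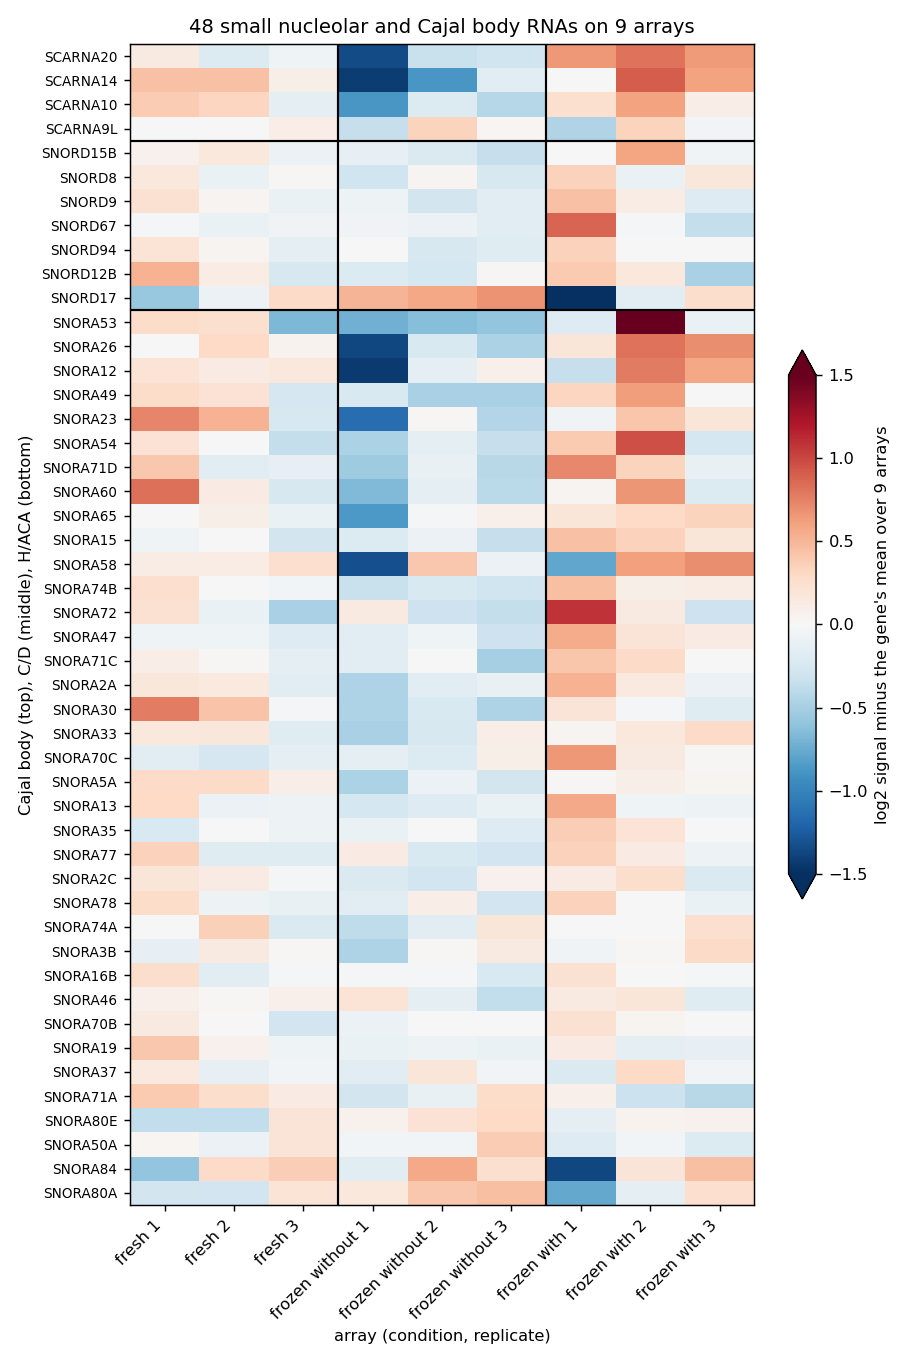
Log2 signal of each of the 48 member genes minus its mean over the 9 arrays (colour, cut at 1.5 in both directions), with the arrays in columns by condition and replicate and the genes in rows by class, each class ordered by the difference between the arrays with and without gradient. The middle 3 columns, without gradient, are mostly blue. SNORD17 and SNORA80A stand out with the opposite pattern, and SNORA84 is lowest on replicate 1 with gradient.

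The first question was whether freezing and thawing without a further gradient moved the small RNAs against the fresh cells. Most members read lower after thawing. The log2 fold change was below 0 for 40 of 48 members and above 0 for 8, with a median of -0.23, against -0.08 over all 18132 genes, of which 38.9% were above 0. The study's criterion was read as an absolute log2 fold change over 1 at an unadjusted p under 0.05. By it only SCARNA14 fell and no member rose, where 2.47% of all genes passed, 2.19% higher and 0.281% lower. No gene had an adjusted p under 0.05, and 9 members, all lower, had an unadjusted p under 0.05, where 6.93% of all genes were higher and 6.49% lower (lowest adjusted p of a member 0.290, limma). Fresh and thawed arrays did not overlap for 11 members that were lower (22.9%) and 1 that was higher (2.08%), against 13.8% and 11.8% of all genes. In these bulk samples, fewer cells of a type and less RNA per cell cannot be told apart.

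SCARNA14, an H/ACA-type scaRNA within TIPIN, read 6.01, 6.01 and 5.66 on the fresh arrays, 4.15, 4.70 and 5.41 without gradient, and 5.58, 6.48 and 6.18 with gradient. The thawed arrays without gradient were all below the fresh ones, replicate 1 by the most. The fall was 1.14 on the log2 scale (SE 0.34, limma, adjusted p = 0.290). Without replicate 1 of the arrays without gradient it was -0.84 and no longer passed, and its brighter probe set gave -0.70.

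SCARNA10, also known as U85, is a mixed C/D and H/ACA scaRNA that guides both kinds of modification on U5 small nuclear RNA, and lies within NCAPD2. It read 4.60, 4.53 and 4.07 on the fresh arrays, 3.34, 4.01 and 3.78 without gradient, and 4.46, 4.82 and 4.31 with gradient. Every array without gradient was below every other array. The difference from fresh was -0.69 (SE 0.23, adjusted p = 0.295), under the fold of the criterion, and much of this range lies near the background controls. Its other probe set gave -0.20.

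SNORA26, an H/ACA RNA within the long noncoding RNA DANCR, read 6.76, 7.05 and 6.81 on the fresh arrays, 5.39, 6.52 and 6.28 without gradient, and 6.93, 7.57 and 7.45 with gradient. The arrays without gradient were again the lowest, with replicate 1 far under the other two. The difference from fresh was -0.81 (SE 0.30, adjusted p = 0.315), and -0.47 without that array. SNORA26 has 1 probe set, of the kind that can bind other transcripts.

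SNORA30, an H/ACA RNA within SRCAP, read 6.54, 6.20 and 5.75 on the fresh arrays, 5.31, 5.55 and 5.32 without gradient, and 5.97, 5.75 and 5.59 with gradient. The highest value without gradient was only just under the lowest of the other conditions, and the arrays with gradient overlapped the fresh ones. The difference was -0.77 (SE 0.21, adjusted p = 0.290), and -0.54 at its other probe set.

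SNORD17, a long box C/D RNA within SNX5, went the other way. It read 6.58, 7.05 and 7.42 on the fresh arrays, 7.64, 7.72 and 7.81 without gradient, and 5.65, 6.96 and 7.41 with gradient. It was the 1 member whose arrays without gradient were all above the fresh ones. The difference was 0.71 (SE 0.41, adjusted p = 0.483).

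Against the fresh arrays, the arrays labelled as frozen with an additional gradient had few genes past the criterion. No member passed the criterion, where 0.0882% of all genes did, 0.0386% higher and 0.0496% lower. The log2 fold change was above 0 for 34 of 48 members with a median of 0.11, against 52.5% of all genes and 0.02. The conditions did not overlap for 5 members that were higher (10.4%) and 2 that were lower (4.17%), against 3.82% and 2.97% of all genes, and every member's adjusted p was at least 0.857 (limma). At an unadjusted p under 0.05 there were 4 higher members and 1 lower, with 2.03% and 1.62% of all genes.

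The 4 higher ones were SCARNA20, an H/ACA-type scaRNA, and the H/ACA RNAs SNORA15, SNORA47 and SNORA70C. SCARNA20 read 8.48, 8.14 and 8.27 on the fresh arrays and 8.99, 9.15 and 8.98 with gradient, a difference of 0.74 (SE 0.27, adjusted p = 0.857). SNORA15, within the chaperonin gene CCT6A, read 4.44, 4.52 and 4.23 on the fresh arrays and 4.95, 4.86 and 4.69 with gradient (difference 0.44, SE 0.15). Both sets of arrays were tightly grouped and apart. SNORA47 differed by 0.40 (SE 0.16) and SNORA70C by 0.45 (SE 0.19), the latter within ASTN2 and mainly through replicate 1 with gradient, at 5.28 against 4.64 to 4.76 on the other two. SNORA47 read 3.935 to 4.064 on the fresh arrays and 4.252 to 4.685 with gradient. Much of the range of SNORA15 and SNORA47 lies near the mean background control. That control was itself 4.23 to 4.27 on the fresh arrays and 4.28 to 4.57 with gradient.

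Both members that were lower without overlap were H/ACA RNAs. SNORA71A, within SNHG17, read 4.70, 4.57 and 4.42 on the fresh arrays and 4.38, 3.98 and 3.89 with gradient (difference -0.48, SE 0.20). On every array with gradient SNORA71A was under the mean background control, which limits this difference. The neighbors of SNORA71A in the same host, SNORA71C and SNORA71D, read 0.24 and 0.27 above fresh. SNORA5A, within the mitochondrial RNA-binding protein gene TBRG4, differed by -0.17 (SE 0.14) with a narrow spread, 5.52, 5.52 and 5.33 against 5.26, 5.33 and 5.28.

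The remaining comparison set both thawed conditions against each other. It shares the arrays without gradient with the first comparison, so a member that was low on them appears in both. With the gradient, 41 of 48 members were higher (85.4%), against 62.6% of all genes, and the median difference was 0.33, against 0.15. The criterion was passed by 3 members that rose, SCARNA14, SCARNA20 and SNORA26, and by 1 that fell, SNORD17. Over all genes 4.35% passed, of which rises made up 0.105% of genes and falls 4.24%. Of 64 member probe sets, 5 rose and 1 fell, against 0.0622% and 2.66% of all probe sets. The conditions did not overlap for 17 higher members (35.4%) and 1 lower (2.08%), against 19.9% and 15.7% of all genes. No gene had an adjusted p under 0.05 (lowest for a member 0.244, limma), while 13 members were higher and 1 lower at an unadjusted p under 0.05, where 9.49% and 10.7% of all genes were. With the replicate number as a block, 1298 genes passed in place of 788, and among the members SNORA53 was added to the 4.

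**Figure D2:**
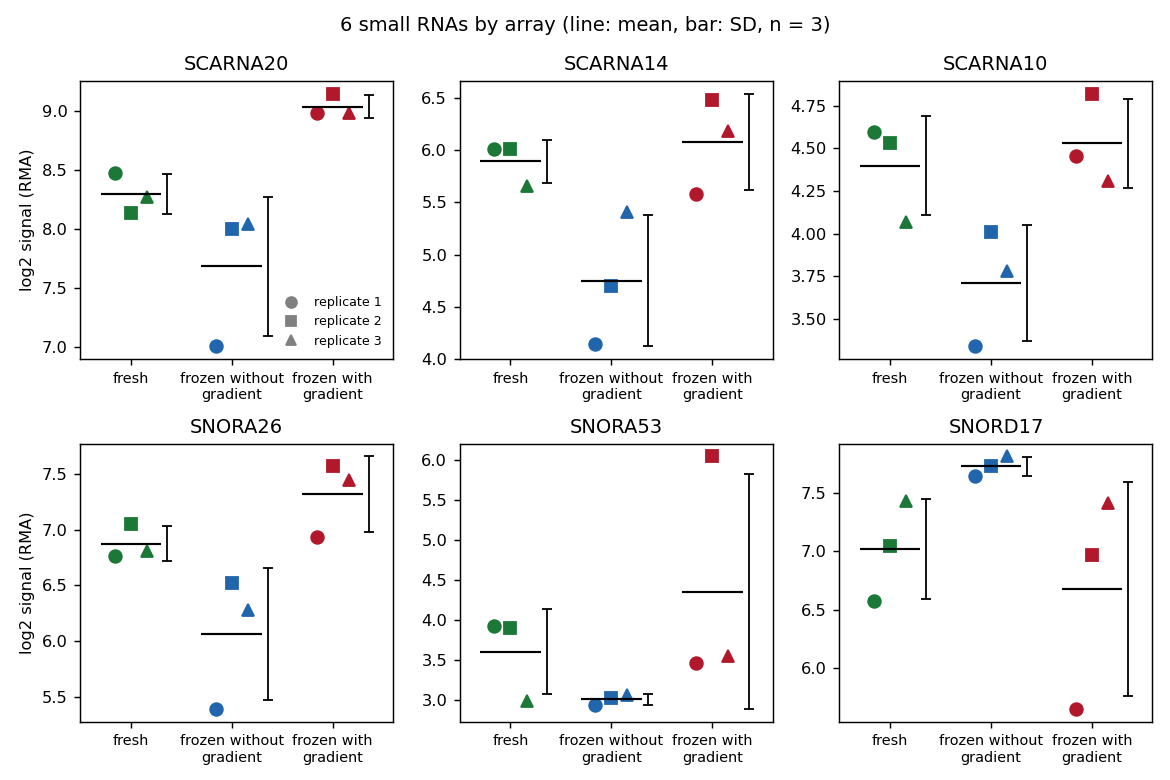
Log2 RMA signal (vertical axis, a separate range in each panel that does not start at 0) of 6 members on the 9 arrays by condition; symbols are replicates, lines are means and bars are SD over 3 arrays. SCARNA20, SCARNA14, SCARNA10 and SNORA26 are lowest without gradient, SNORA53 stands high on replicate 2 with gradient alone, and SNORD17 is highest without gradient.

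SCARNA20 had its 3 arrays without gradient at 7.0, 8.0 and 8.05, below all 6 others, and those with gradient above all fresh ones. The rise was 1.36 (SE 0.27, adjusted p = 0.244). Of its other probe sets 1 gave 1.34, and the other gave 0.36, with values of 5.73, 5.71 and 5.37 without gradient and 6.10, 5.93 and 5.85 with it. The direction was shared by all 3, and the size was not.

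SCARNA14 rose by 1.33 (SE 0.34, adjusted p = 0.244), from the values given above. Its second probe set read 6.03, 7.48 and 7.66 without gradient and 7.71, 8.38 and 8.17 with it, a rise of 1.03. At both probe sets all arrays with gradient were above all without, although at the second the gap was narrow, and replicate 1 without gradient was the lowest array. SNORA26 rose by 1.25 (SE 0.30, adjusted p = 0.244), and by 0.92 without replicate 1 of the arrays without gradient, when it no longer passed.

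SNORD17 fell by 1.05 (SE 0.41, adjusted p = 0.244). Most of this came from replicate 1 with gradient, at 5.65 against 6.96 and 7.41 on the other two, and without that array the value was -0.54 and did not pass. It also lost its call without any 1 of the arrays without gradient, at -1.09 to -1.01. SNORA53, a long H/ACA RNA within SLC25A3, read 2.93, 3.02 and 3.06 without gradient and 3.46, 6.05 and 3.55 with it (difference 1.35, SE 0.62, adjusted p = 0.250). Replicate 2 with gradient decided its size, and without that array the difference was 0.50. With the replicate block it passed the criterion at the same size (SE 0.51).

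SNORA49, SNORA65, SNORA12 and SNORA58 did not pass the criterion and are shown as examples chosen after their values were seen. SNORA49, within the chromatin remodeling gene EP400, read 5.32, 5.07 and 5.07 without gradient and 5.88, 6.18 and 5.56 with it (difference 0.72, SE 0.21, adjusted p = 0.244). SNORA65, within the ribosomal protein gene RPL12, read 4.68, 5.52 and 5.62 and then 5.72, 5.84 and 5.88 (difference 0.54, SE 0.24, adjusted p = 0.247). The arrays with and without gradient did not overlap for either gene. In SNORA65 replicate 1 without gradient was well under its group, as it was for SCARNA20, SNORA26 and SNORA12. SNORA12, within CWF19L1, read 6.86, 8.15 and 8.38 without gradient and 7.96, 9.08 and 8.88 with it, and these overlapped (difference 0.84, SE 0.41, adjusted p = 0.255). In SNORA12 and SNORA58, replicate 1 was the lowest array in both thawed conditions.

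Small RNAs that share a host could be set side by side. Of the 3 in SNHG17, SNORA71C and SNORA71D were 0.46 and 0.67 higher with than without gradient, and SNORA71A was at -0.18. In KANSL2, SNORA2A was at 0.44, without overlap, and SNORA2C at 0.20, with overlap. SNORD8 and SNORD9, both C/D RNAs in CHD8, were each at 0.30. In CNOT1, SNORA46 was at 0.15 and SNORA50A at -0.25, both among the members under the background controls on all arrays. The members of a host thus shared a sign in KANSL2 and CHD8 and not in SNHG17 and CNOT1.

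ScaRNAs had the largest median difference among the classes. Over their 9 probe sets it was 0.82, with 8 above 0 and 6 that were higher without overlap, where 61.9% of all 44988 probe sets were above 0 and 17.3% were higher without overlap. The 46 H/ACA probe sets had a median of 0.33, with 40 above 0 and 15 that were higher without overlap, and the 9 C/D probe sets a median of 0.26, with 8 above 0. These classes were not tested against each other, and the 9 scaRNA probe sets belong to 4 genes. SCARNA9L, a relative of SCARNA9 within EIF1AX, was the scaRNA that did not share the pattern, at -0.06 and 0.14 for its 2 probe sets. Besides SNORD17, the members below 0 were SCARNA9L, SNORA50A, SNORA71A, SNORA80A, SNORA80E and SNORA84, from -0.56 for SNORA80A to -0.06. SNORA84 read 7.04, 7.76 and 7.44 without gradient and 5.84, 7.40 and 7.66 with it, so that replicate 1 alone was low.

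**Figure D3:**
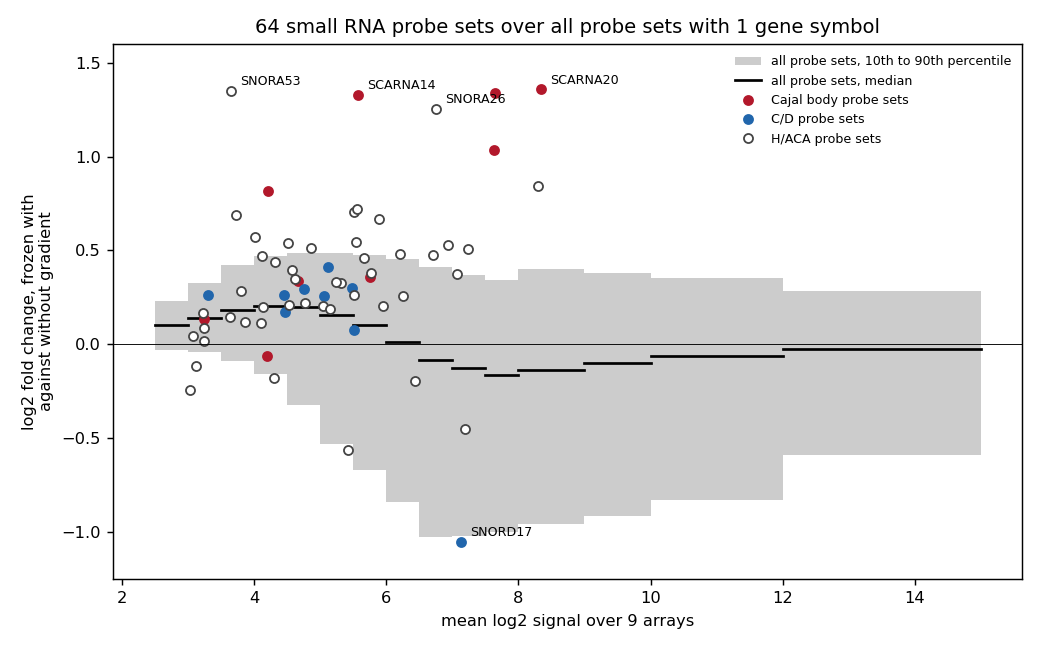
Log2 fold change of frozen with against without gradient (vertical axis) over the mean log2 signal on 9 arrays (horizontal axis) for the 64 member probe sets (points, by class), with the median (black steps) and the 10th to 90th percentile (grey) of the 44988 probe sets with 1 symbol in the same signal band. Between 4 and 8, 43 of 49 member probe sets are above 0, and their median of 0.35 compares with 0.10 over all.

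The difference depended on signal over the whole array, so members were also set against probe sets within a range of signal. Between a mean of 4 and 8, the 49 member probe sets had a median of 0.35 and 43 above 0, against 0.10 and 59.8% for all 26342 probe sets in that range. This range is wide, and in narrower bands the gap varied. The member median was 0.23 against 0.21 at 4 to 4.5, and 0.34 against 0.20 at 4.5 to 5. It was 0.28 against 0.15 at 5 to 5.5, and 0.46 against 0.10 at 5.5 to 6. At 3 to 3.5 the members were lower, at 0.06 against 0.14. Among the 15 members with several probe sets, these shared a sign in 14, all but SCARNA9L. Of 35 probe sets designed on the member's own RefSeq record, 33 were above 0, and of 29 designed on another record 23 were. Members in long noncoding hosts had a median of 0.33 (8 of 9 above 0) and those in protein-coding hosts 0.33 (33 of 39).

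The hosts gave the next comparison, since a small RNA and its host come from the same primary transcript where they share a strand, which was not checked here. In frozen without gradient against fresh, the 39 host genes had a median of 0.27, against -0.08 over all genes. Of the hosts 30 were above 0 (76.9%), against 38.9% of all genes, and 2 rose past the criterion, against 2.19%. These were CKAP5, a microtubule polymerase that holds SNORD67, by 1.98 (SE 0.79, adjusted p = 0.338), and ATP6V0E1, a subunit of the vacuolar proton pump that holds SNORA74B, by 1.18 (SE 0.48, adjusted p = 0.345). With against without gradient, the hosts had a median of -0.45, against 0.15 over all genes. Of the hosts 7 were above 0 (17.9%), against 62.6% of all genes, and 5 fell past the criterion, against 4.24%. They were NAP1L4, a histone chaperone (-2.13), CKAP5 (-1.88), CWF19L1 (-1.64), ATP6V0E1 (-1.18) and PPP2R5A, a regulatory subunit of protein phosphatase 2A (-1.16), the last named after its value was seen. Without replicate 1 with gradient, NAP1L4 was at -1.18, CKAP5 at -1.05 and ATP6V0E1 at -0.68, and each of these 3 lost its call in 5 of the 9 fits that left out 1 array. The rises of CKAP5 and ATP6V0E1 against fresh were also lost in 5 of 9 fits, and were 1.28 and 0.76 without fresh replicate 1. None passed with gradient against fresh, where the median was -0.08. The hosts' values depended on the probe set. By the probe set with the highest mean, CWF19L1 read 0.06, no host passed, and the host median over the 44 pairs was -0.08 in place of 0.27 without gradient against fresh. Between the thawed conditions it was 0.00 in place of -0.36. The direction of the hosts as a list therefore held for their most variable probe sets and not for their brightest.

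CKAP5 read 4.76, 6.29 and 7.45 on the fresh arrays, 8.33, 7.89 and 8.22 without gradient and 4.62, 6.80 and 7.38 with gradient. Its small RNA SNORD67 read 3.24, 3.21 and 3.14 without gradient and 4.17, 3.27 and 2.95 with it, under the mean background control on every array, so that its course cannot be read against the host's. The host was highest without gradient. ATP6V0E1 read 9.35, 9.04 and 9.37 without gradient and 7.08, 8.39 and 8.76 with it, and its small RNA SNORA74B 6.90, 7.0 and 6.93 and 7.68, 7.32 and 7.35, with no overlap in either and in opposite directions.

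Over the 44 pairs with a measured host, the change of the small RNA minus that of its host had a median of -0.49 without gradient against fresh and was above 0 in 12 pairs, with the small RNA below 0 and the host above in 25. By the hosts' probe sets with the highest mean it was -0.24, above 0 in 16 pairs, with 17 of that kind. With against without gradient it had a median of 0.59 and was above 0 in 37 pairs, and in 28 the small RNA was above 0 and the host below. The difference was higher on all arrays with gradient than on all without in 20 pairs, and lower in 1 (SNORA71A with SNHG17). Pairs that share a host are not independent. The hosts were also brighter, with a median signal of 7.70 against 5.09 for the small RNAs. Over all probe sets the same comparison had a median of 0.15 at a signal of 5 to 5.5 and of -0.16 at 7.5 to 8. The pairs were not set against other pairs of like signal, so the part of signal in their difference was not tested. By the hosts' probe sets with the highest mean, the median was 0.39, the small RNA was above its host in 32 pairs, and 19 pairs had the small RNA above 0 and the host below. The difference was then higher without overlap in 13 pairs and lower in 4. The share of such pairs among other genes was not computed.

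**Figure D4:**
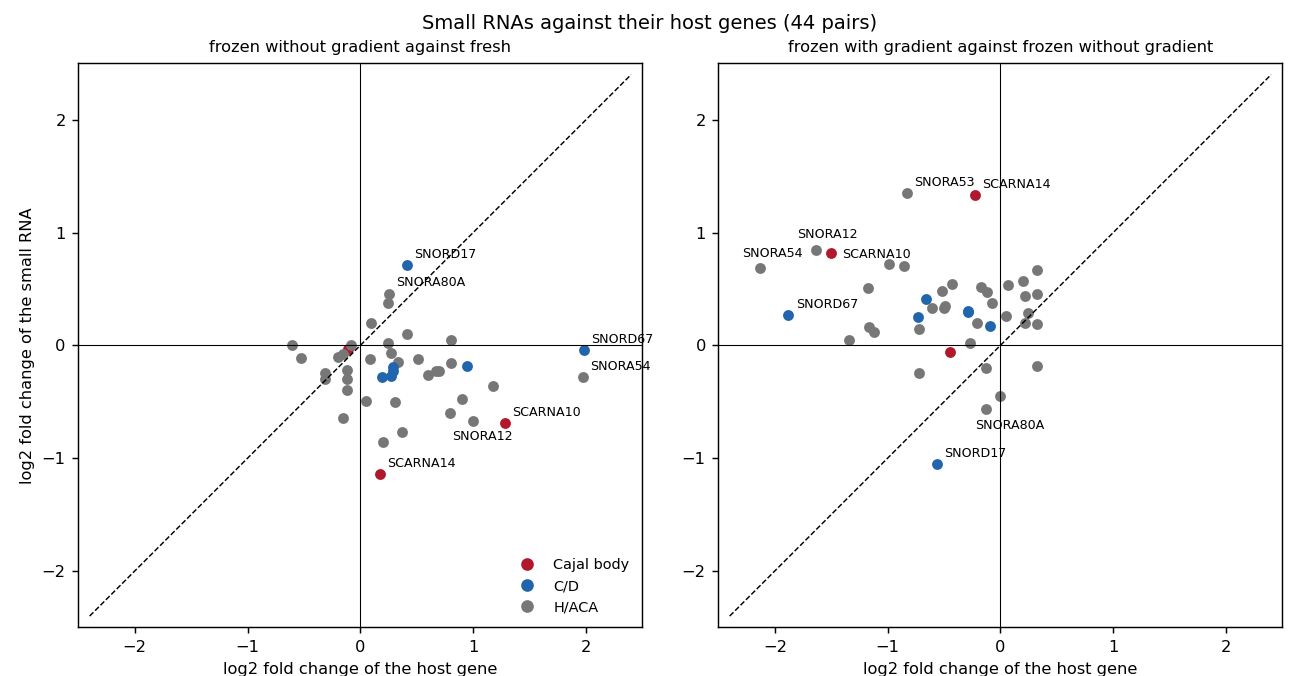
Log2 fold change of each small RNA (vertical axis) against that of its host gene (horizontal axis) for 44 pairs, with the dashed line where both are equal, for frozen without gradient against fresh (left) and frozen with against without gradient (right). On the left most points lie below the line, 25 of them with the host above 0 and the small RNA below, and on the right most lie above it, 28 with the signs turned.

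SCARNA10 lay far from its host NCAPD2, a condensin subunit. The host read 6.99, 7.47 and 8.80 on the fresh arrays, 8.85, 9.04 and 9.22 without gradient and 5.91, 8.04 and 8.64 with it. With against without gradient the small RNA changed by 2.32 more than its host, and without gradient against fresh by -1.97 (exact permutation test, two-sided, p = 0.1 in each, the smallest that 3 against 3 allow), and by the host's brighter probe set these were 2.13 and -1.77. SCARNA10 was under the mean background control on every array without gradient, which limits its part in both differences. SCARNA10 itself changed by 0.82 and -0.69, by less than NCAPD2, which moved the other way. The other probe set of SCARNA10 gave 0.34 and -0.20, in the same order. TIPIN, a replication fork protein, hardly differed, at -0.22 with against without gradient, when SCARNA14 rose. The difference of that pair was 1.55 (exact p = 0.1), or 1.06 by the host's brighter probe set. The change of SNORA53 was 2.18 above that of SLC25A3, the mitochondrial phosphate carrier (exact p = 0.1), and 1.63 above by that host's brightest probe set. SNORA53 was under the mean background control on every array except replicate 2 with gradient, at 6.05. Its course can therefore not be read against the host's. SNX5, a sorting nexin of the endosome and the host of SNORD17, read 0.41 above fresh without gradient and -0.57 with against without gradient at its most variable probe set, and the pair's difference of -0.49 had an exact p of 0.2. Its 3 other probe sets did not share this, at -0.06, -0.09 and -0.45 without gradient against fresh and 0.04, -0.01 and 0.54 with against without gradient, the brightest first.

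Hosts whose start has the pyrimidine tract, as printed for NCAPD2 and SNX5, had a median of -0.61 with against without gradient (7 of 8 measured below 0), and those without it -0.27 (20 of 25 below 0). The small RNAs in them had medians of 0.39 (9 of 10 above 0) and 0.33 (26 of 31 above 0). The tract was not tested as a source of these values.

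The genes of the proteins that bind, assemble, transport and trim these RNAs had medians of the same sign as the hosts. Of 30 listed, 29 were measured. Their median signal was 7.75, against 5.57 over all genes, and they were not set against genes of like signal. Without gradient against fresh their median change was 0.52, with 24 above 0 (82.8%), against -0.08 and 38.9% for all genes. Past the criterion 2 rose, where 2.19% of all genes did. These were NOP58, a core protein of box C/D particles, by 2.39 (SE 0.95, limma, adjusted p = 0.338), and EXOSC10, the nuclear exosome exonuclease that trims snoRNA ends, by 1.02 (SE 0.23, adjusted p = 0.290). With against without gradient the median was -0.53, with 4 above 0 (13.8%), against 0.15 and 62.6% for all genes. Past the criterion 2 fell, where 4.24% of all genes did. These were PIH1D1, a subunit of the R2TP assembly complex, by 1.41 (SE 0.55, limma, adjusted p = 0.244), and FBL, fibrillarin, the methyltransferase of box C/D particles, by 1.04 (SE 0.36, adjusted p = 0.244). None passed with gradient against fresh, where the median was -0.16. Leaving out 1 array, NOP58 and PIH1D1 lost their calls in 5 and 4 of 9 fits, EXOSC10 in 3 and FBL in 2, and without replicate 1 with gradient PIH1D1 was at -0.82. With the replicate block, 7 protein genes fell with against without gradient. By the probe set with the highest mean, no protein gene passed without gradient against fresh and 1 passed with against without gradient. The medians above are of the most variable probe sets. Over all 78 probe sets of these genes they were smaller, 0.19 (64.1% above 0) and -0.26 (30.8% above 0). All probe sets with 1 symbol had -0.06 (39.2%) and 0.10 (61.9%). FBL read 11.00, 11.75 and 12.25 on the fresh arrays, 12.63, 12.47 and 12.37 without gradient and 10.80, 11.55 and 11.98 with it. The arrays without gradient were all above the others. Most small RNAs had fold changes of the opposite sign in both comparisons that hold these arrays. Fewer were apart without overlap, 11 of 48 lower without gradient than fresh and 17 of 48 higher with than without gradient.

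**Figure D5:**
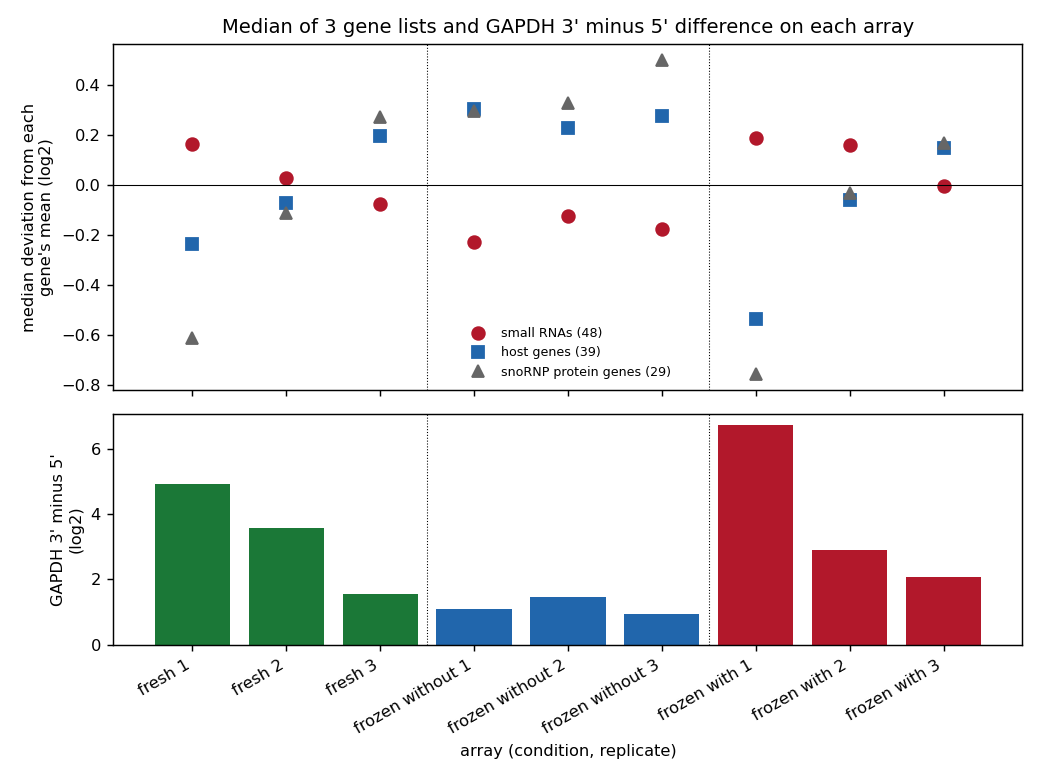
Upper panel, median over each list of the log2 signal minus the gene's own mean over 9 arrays, by array, for the 48 small RNAs, 39 host genes and 29 genes of small RNA proteins; lower panel, GAPDH 3' minus 5' difference (log2, bars from 0). Each gene is shown by its most variable probe set. The small RNAs are lowest and both other lists highest on the 3 arrays without gradient, where the GAPDH difference is 0.94 to 1.45.

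The 3 lists also differed array by array within a condition. On replicates 1, 2 and 3 with gradient the median deviation was 0.19, 0.16 and 0.00 for the small RNAs, -0.54, -0.06 and 0.15 for the hosts and -0.76, -0.03 and 0.17 for the protein genes, with a GAPDH difference of 6.73, 2.90 and 2.07. On the fresh arrays the hosts had -0.24, -0.07 and 0.20 and the protein genes -0.61, -0.11 and 0.27, with a GAPDH difference of 4.92, 3.56 and 1.56. With the GAPDH difference added to the model, the members' median with against without gradient was 0.18, with 34 of 48 above 0, against 0.00 over all genes. SCARNA14 then rose by 1.55, SCARNA20 by 1.33 and SNORA26 by 1.48 past the criterion, while SNORD17 was at -0.16 and did not pass, 5 members passed and no host or protein gene did. Without gradient against fresh, the same covariate gave a member median of -0.07, with 16 above 0, against 0.04 over all genes.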

How the data were processed

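Total RNA (TRIzol) of 3 fresh, 3 frozen without gradient and 3 frozen with gradient samples was hybridized by the authors to PrimeView arrays, 1 per sample. The deposited values are log2 probe set signals that the authors computed with RMA, versions not given in the sources used here. RMA normalizes by quantiles, so a shift shared by all genes is lost, and raw intensities were not used here. Of 49395 probe sets, 102 controls, 1832 with several symbols and 2473 with no symbol were left out. The most variable probe set stood for each gene, as in the study. limma 3.58.1 in R 4.3.3 fitted 3 condition means over all 9 arrays, with Benjamini-Hochberg adjustment over 18132 genes (44988 for probe sets). The limma p-values weigh a difference of condition means against the spread of arrays within conditions, with the arrays taken as unpaired except in the fit with the replicate block. With 3 arrays per condition, the number of arrays limits the precision. Hosts were RefSeq genes that span the member, 24 of 48 also on a hand-written list, without regard to strand. Each member minus host difference was compared by an exact permutation test. The procedure was tested on simulated data. The labels do not say what a replicate number marks. Deviations of same-numbered arrays correlated at over 0.1 in 7 of 9 pairs, including all 3 of with against without gradient (0.21 to 0.50), and 7 of 9 arrays correlated best with their own number. With the fresh arrays, replicates 1 and 3 were at 0.43 and 0.55 without gradient and at 0.74 and 0.80 with gradient. The 2 replicate 2 pairs with the fresh array were at 0.04 and 0.0089. The study describes 3 biological replicates under the 3 conditions, so the numbers may pair all 9 arrays. Values with the number as a block stand beside the comparison of the thawed conditions where it changes a call or count. Counts with the block for the comparisons with fresh follow below.

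Named were the members past the criterion in any comparison, up to 4 largest rises and falls without overlap per comparison, their hosts, and up to 4 hosts or protein genes past the criterion per direction. Other genes are named as examples. Alternatives were other probe sets, cyclic loess, median centring, a minimum mean of 5, an intensity trend, array weights, the replicate block, both conditions alone, the GAPDH difference as a covariate and each array left out. The members and lists were chosen with earlier results of these data known.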

Additional observations from a re-analysis of the deposited data

How the results depend on the processing

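Counts are given for frozen without gradient against fresh (the first comparison), then with gradient against fresh (the second), then with against without (the last). The 48 small RNAs, with 1, 0 and 4 past the criterion, kept these sides except as follows: 0 passed in the first comparison by the probe set with the highest mean and by the mean of all probe sets, and with array weights, whose estimation stopped before it converged, 2 passed in the second and 8 in the last. Leaving out 1 array gave 0 to 3, 0 to 0 and 2 to 6. The count in the first was 0 without replicate 1 of the arrays without gradient, 3 without their replicate 2 and 2 without fresh replicate 3, and in the last 2 without replicate 1 of those without gradient. The member median in the last was 0.33, 0.21 without replicate 1 with gradient and 0.14 by cyclic loess, with 32 members above 0, when the median of all genes moved from 0.15 to 0.00. The median relative to all genes was then 0.14 instead of 0.18. In the first it was -0.23, -0.15 without fresh replicate 1 and -0.14 by cyclic loess. In the second, cyclic loess left 25 members above 0 with a median of 0.00.

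Host counts were 2, 0 and 5. They were 0 in the first and last by the probe set with the highest mean and with the GAPDH covariate, 0 and 2 by the mean of all probe sets, and in the first 4 by every probe set on its own and 5 with array weights or from both conditions alone. CWF19L1 in the last reversed from -1.64 to 0.063 by the probe set with the highest mean. Leaving out 1 array gave 0 to 9, 0 to 2 and 1 to 11. Counts of protein genes were 2, 0 and 2. The first was 0 by the highest mean and by the mean of all probe sets, 1 at a mean of at least 5 or with the GAPDH covariate and 6 with array weights. The second was 1 with array weights. The last was 1 by cyclic loess and by both of these probe set choices, 4 with array weights, 5 from both conditions alone and 0 with the GAPDH covariate. Leaving out 1 array gave 0 to 8, 0 to 0 and 0 to 10. The cause of these shifts was not tested.

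All genes past the criterion numbered 448, 16 and 788 under the deposited labels, which may be exchanged between the thawed conditions, and 113, 12 and 201 by the brightest probe set, 78, 4 and 188 by averaged probe sets, 1088, 109 and 697 with array weights, 204, 19 and 87 with the GAPDH covariate. With the replicate block, 729, 25 and 1298 genes passed, 5 hosts and 6 protein genes in the first comparison and 7 protein genes in the last, while the counts of small RNAs, and of hosts in the last comparison, changed by less than 1.5 times. Of single named results, the block changed the call of SNORA53 alone. Signals at or near the background controls limit the 8 members under their mean and the 13 on both sides of it.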

Other observations

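Outside the rule, 48 probe sets carried a member symbol together with another symbol, mostly that of the host. With against without gradient, 33 of them were above 0 with a median of 0.16, near the 61.9% and 0.10 of all probe sets with 1 symbol, and 1 passed the criterion in each direction. The 1 that rose is annotated to RNF149 and SNORD89 (1.13), and the 1 that fell to SNHG12 and SNORA61 (-1.0). Probe sets of EIF4A2, a translation initiation factor, with SNORA63 or SNORA4 in its introns, read 0.58 to 0.83 above without gradient at all 4 probe sets. Those of RPS12 with SNORA33 read -0.36 and -0.32, where the probe set of SNORA33 alone read 0.38.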
